A study of Mus musculus with 4 samples.

Results

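The enteroendocrine group held the genes of 8 gut hormones (Cck, Gcg, Sct, Gip, Nts, Pyy, Ghrl and Sst) and of the granins chromogranin A (Chga) and chromogranin B (Chgb). Its members were the probes whose platform gene symbol was one of these names, which gave 14 probes for all 10 genes, out of 16593 genes named on an array of 25697 probes. RNA of gut epithelial cells from C57BL/6 mice was hybridised to 4 Illumina arrays, 2 for Ifnar1+/+ and 2 for Ifnar1-/- samples; Ifnar1 is a subunit of the type I interferon receptor. Mice of both groups carried floxed Csnk1a1 and the tamoxifen-activated Vil1-Cre-ERT2, which acts in villin-expressing gut epithelium, so Csnk1a1, which encodes casein kinase 1 alpha, was a deletion shared by the Ifnar1+/+ controls, and no sample was labelled as having intact Csnk1a1. All mice received 2 daily doses of tamoxifen (120 mg/kg), and epithelial cells were collected 5 days later by a 30 min incubation with EDTA (5 mM) held at 4 °C. The growth protocol writes Ifnar1+/+ for both crosses, against the titles and genotype labels, which were followed. The tissue label says colon, whereas the protocol names the middle of the small intestine. Of 13 colon genes with a probe, 6 were detected (detection p under 0.05) on no array, Aqp8 and Slc26a3 among them, and 4 on every array. For the proximal and the distal small intestine alike, 7 of 9 genes with a probe were detected on every array. On no array were 2 of the distal genes detected, Slc10a2 and Bsnd, and 0 of the proximal genes were missing in this way. The labels do not give the age at sampling, or whether each array stands for its own animal, so every p-value reflects the spread among these samples alone, and that spread may be technical.

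Enteroendocrine cells are scattered single cells of the gut epithelium that arise from crypt progenitors under the transcription factor Neurog3. They sense nutrients at the lumen and release peptide hormones from dense-core granules, in which granins are packed with the hormones. Hormones differ along the gut: Gip, Sct and Cck are known chiefly from the proximal small intestine, and Nts, Pyy and Gcg from the distal small intestine and, for Pyy and Gcg, the colon. On a bulk array, fewer cells of a type and less RNA per cell cannot be told apart.

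The start regions of 6 members are shown to place the hormones and granins that the values turn on beside the sequences from which they are transcribed. RefSeq promoters (GRCm38.p6) of 300 bases, from 250 before to 50 after each annotated start, were found for all 10 genes. A search of both strands for TGACGTNA, the letters of a cAMP response element, matched the promoters of Sst, Chga and Chgb among the members and 2.93% of all 32851 promoters. The letters GAAANNGAA, a short form of the interferon-stimulated response element, matched 1 member, Sst, and 8.56% of all promoters. The TATA box letters TATAAA matched Gcg, Sct and Chga (13.6% of all promoters), AGATAA, bound by GATA factors, matched Cck, Gip and Nts (11.2%), and CTTTGAA or CTTTGAT, bound by LEF/TCF factors, matched Nts and Ghrl (8.65%). The E-box letters CANNTG matched all 10 genes and 72.3% of all promoters. Stretches from 110 bases before to 10 after the start follow, read 5′ to 3′ along the gene, with TGACGTNA in capitals. They lie at chr16:23890835-23890954 (minus strand) for Sst, chr12:102554831-102554950 (plus strand) for Chga, chr2:132781532-132781651 (plus strand) for Chgb, chr10:102490409-102490528 (minus strand) for Nts, chr11:102107823-102107942 (minus strand) for Pyy and chr6:113719902-113720021 (minus strand) for Ghrl; for Pyy and Ghrl, which have 2 and 4 annotated starts, the most upstream was taken.
Sst: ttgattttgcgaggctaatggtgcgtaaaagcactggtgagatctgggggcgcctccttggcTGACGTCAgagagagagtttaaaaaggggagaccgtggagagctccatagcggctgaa
Chga: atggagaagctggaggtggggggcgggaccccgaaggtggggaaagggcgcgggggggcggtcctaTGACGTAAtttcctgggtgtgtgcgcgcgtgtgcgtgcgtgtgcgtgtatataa
Chgb: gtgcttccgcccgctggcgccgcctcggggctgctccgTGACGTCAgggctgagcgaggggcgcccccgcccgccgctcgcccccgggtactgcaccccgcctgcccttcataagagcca
Nts: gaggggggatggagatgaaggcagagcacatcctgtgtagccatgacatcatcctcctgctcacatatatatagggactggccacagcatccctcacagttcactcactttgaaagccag
Pyy: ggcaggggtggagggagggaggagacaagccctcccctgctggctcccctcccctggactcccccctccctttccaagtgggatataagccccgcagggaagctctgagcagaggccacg
Ghrl: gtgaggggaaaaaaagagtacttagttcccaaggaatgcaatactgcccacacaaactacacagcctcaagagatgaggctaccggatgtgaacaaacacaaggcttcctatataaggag
Nts, Pyy and Ghrl were shown because they had the smallest p-values among the members, and none of their stretches held TGACGTNA. These matches describe letters, not sites in use.

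Detected probes (detection p under 0.05) numbered 11234 to 11954 per array, and raw signals had medians of 143.5 to 157.8. The arrays of the Ifnar1-/- group differed from each other by more than 1 log2 unit in 7.38% of the 8442 genes tested, and those of the Ifnar1+/+ group in 1.69%. The probes for Ifnar1 and Csnk1a1 were not well above background on any array, so neither checked the genotype labels. Of 20 absorptive enterocyte markers with a probe 16 were detected on every array, against 1 of 15 enteric neuron and glia markers. The enterocyte markers Fabp1 and Fabp2 were detected on no array, and a lack of detection need not mean that an RNA was absent. Between the groups these lists were not level. The summed background-corrected intensity of the enterocyte markers was 202200 and 185800 in Ifnar1+/+ and 93920 and 171100 in Ifnar1-/- samples (arrays 1 and 2 of each), and that of the Paneth cell markers was 71090 and 60090 against 212100 and 89770. T cell markers had a lower mean in Ifnar1-/- for all 6 tested (47% of all genes), with sums of 777.1 and 741.5 against 180.9 and 354.3. Among these, Cd3d was kept for testing only through the Ifnar1+/+ arrays, so the filter favoured its direction. Those of fibroblasts and smooth muscle stood at 3433 on Ifnar1+/+ array 1, 867.9 on Ifnar1+/+ array 2, and 818.4 and 535 in Ifnar1-/-. The 11 tested proliferation markers had a higher mean on the Ifnar1-/- arrays in 11 cases (53% of all genes), with summed intensities of 6904 and 8002 against 14860 and 9571. The part of these shifts in the differences below was not tested.

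Hormone and granin RNAs did not pass the test for a difference between Ifnar1-/- and Ifnar1+/+ epithelium. At an adjusted p under 0.05, limma called 0 of the 10 members, and 0 of all 8442 genes tested (0%). The mean was lower in the Ifnar1-/- group for 7 members and higher for 3, against 47% and 53% of all genes. The members' median log2 difference (Ifnar1-/- minus Ifnar1+/+) was -0.21, beside 0.03 over all genes, whose quartiles were -0.23 and 0.27. Neurotensin RNA had the lowest value relative to the controls, at -0.81 ± 0.28 (log2, SE). Ghrelin RNA was not above background in the controls. Its mean over both Ifnar1-/- arrays was at least 1.5-fold higher, chiefly through array 2, without passing the test (limma, adjusted p = 0.53). Ghrl was kept for testing only through the Ifnar1-/- arrays, so the filter favoured its direction in the counts given here, and it is 1 of the 3 with a higher mean. The 2 groups did not overlap for 5 members with lower values (Nts, Pyy, Chga, Sct and Gip), where 19.5% of all genes did so, and for 1 with higher values (Ghrl), where 23.9% did. At an unadjusted p under 0.05, 1 member was lower (Nts) and 0 were higher, against 5.27% and 4.25% of all genes.

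**Figure D1:**
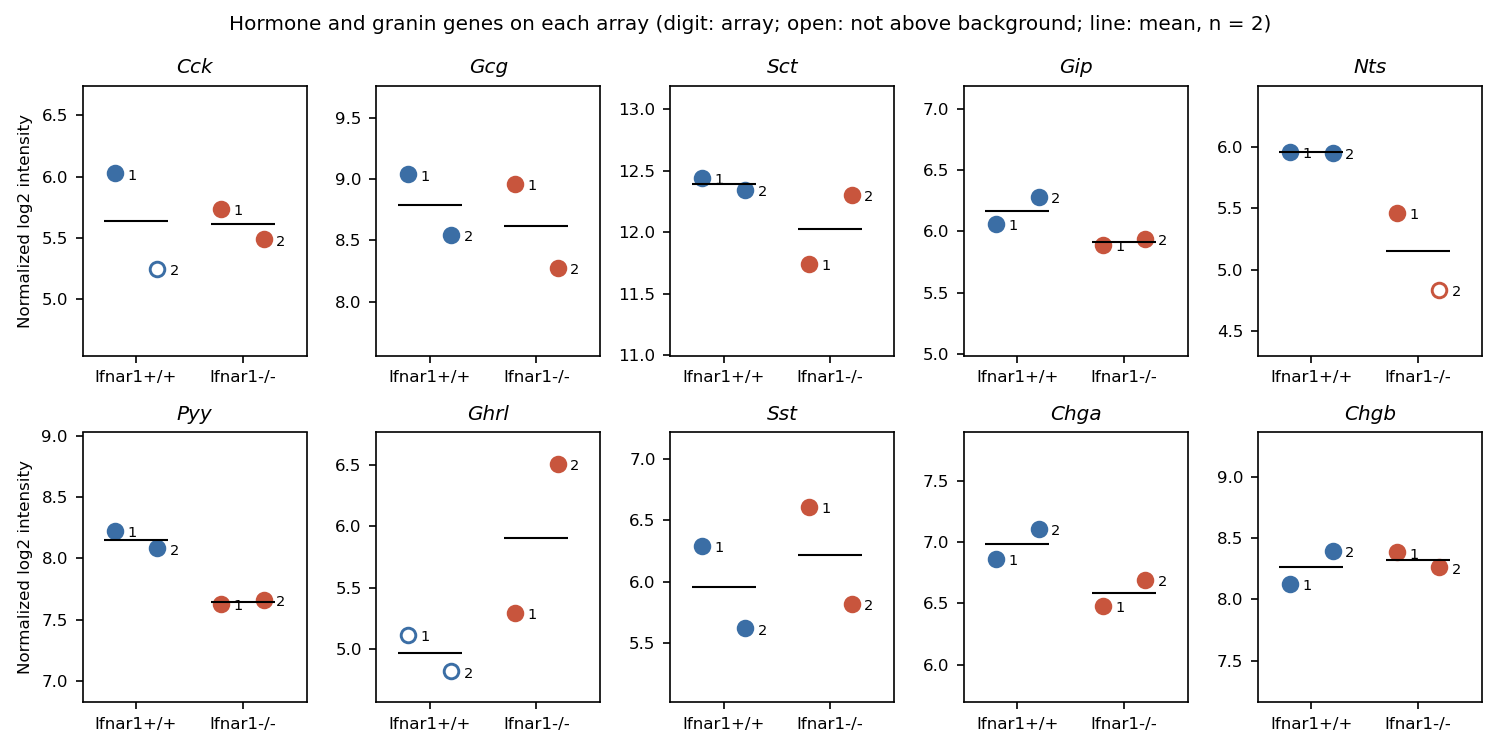
Normalized log2 intensity (vertical axis, panels of equal span) of the brightest kept probe of each gene on each array, by group (horizontal axis), with Ifnar1+/+ in blue and Ifnar1-/- in red, the digit giving the array number, open circles marking a detection p of 0.05 or more and lines the mean of 2 arrays. Pyy lay at 8.22 and 8.08 in Ifnar1+/+ and at 7.63 and 7.66 in Ifnar1-/-, whereas the arrays of both groups were interleaved for Gcg, Cck and Sst.

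Among the hormones of the proximal intestine, secretin RNA (Sct), which in the body drives bicarbonate secretion by the pancreas, was detected on every array. Its raw signals were 5825.7 and 4575.2 in Ifnar1+/+ and 3988 and 5224 in Ifnar1-/- samples. After normalization it lay at 12.44 and 12.35 in Ifnar1+/+ and at 11.74 and 12.31 in Ifnar1-/- (log2 intensity). Both Ifnar1-/- values were below both controls, but array 2 was within 0.09 of the control mean and array 1 was 0.66 below it. The difference was -0.37 ± 0.27 (log2, SE; limma, adjusted p = 0.65), with a 95% interval from -1.02 to 0.28, and it was -0.09 without Ifnar1-/- array 1. That array was also the one with the lowest enterocyte and highest Paneth cell sums.

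Gip, the incretin released by K cells, was detected on all 4 arrays at a dim raw signal of 178.5 to 190. Normalized values were 6.06 and 6.28 in Ifnar1+/+ and 5.89 and 5.94 in Ifnar1-/-. The groups did not overlap. The difference of -0.25 ± 0.23 (SE) had an adjusted p = 0.72 and an interval from -0.80 to 0.29. Cholecystokinin RNA (Cck), whose product empties the gallbladder and curbs feeding, was above background on 1 Ifnar1+/+ and both Ifnar1-/- arrays. It lay at 6.03 and 5.25 in Ifnar1+/+ and at 5.74 and 5.49 in Ifnar1-/-, so the Ifnar1-/- values fell between those of the controls. Its difference was -0.03 ± 0.31 (SE; adjusted p = 0.98), and the interval, from -0.78 to 0.73, leaves room for a change in either direction.

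Among hormones of the distal intestine, Pyy encodes peptide YY, which slows gut transit and reduces appetite, and its probe was detected on every array with raw signals of 420.4 and 335.7 in Ifnar1+/+ and 349.9 and 322.8 in Ifnar1-/-. Normalized, it lay at 8.22 and 8.08 against 7.63 and 7.66. The Ifnar1-/- arrays were 0.03 apart and the controls 0.14 apart, so the groups were separated by more than the gap inside either. The difference of -0.50 ± 0.22 (SE), a 1.42-fold lower mean, had an adjusted p = 0.53 by limma and an interval from -1.04 to 0.03. It ranged from -0.57 to -0.43 when each array was left out in turn.

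Neurotensin RNA (Nts), made by N cells of the ileum and known to promote fat absorption, gave raw signals of 178.4 and 166 in Ifnar1+/+ and 171.2 and 140.7 in Ifnar1-/-. It was above background on 3 arrays and not on Ifnar1-/- array 2, where the detection p was 0.303. Normalized values were 5.96 and 5.95 in Ifnar1+/+ and 5.46 and 4.84 in Ifnar1-/-. The controls were 0.01 apart, and both Ifnar1-/- arrays lay below them, 1 of them without a measured signal. The difference of -0.81 ± 0.28 (SE), a 1.75-fold lower mean, had an unadjusted p = 0.025 and an adjusted p = 0.50. Without background correction it was -0.26. When each array was left out in turn it ranged from -1.12 to -0.49, the latter without Ifnar1-/- array 2. The other Nts probe was above background on Ifnar1-/- array 1 alone and gives no second measurement.

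The list of genes known from the distal small intestine had a lower mean in Ifnar1-/- samples for all 7 tested genes (47% of all genes), 3 of them at an unadjusted p under 0.05 (5.27% of all genes) and 0 after adjustment over all genes. The groups did not overlap for 5 of the 7 (19.5% of all genes) and did for Fgf15 and Mep1a. The list had a median log2 difference of -1.17, and Pyy, which belongs to it, was the closest to 0. That median came to -1.44 on the first Ifnar1-/- array and -0.49 on the second. The 8 tested proximal genes had a median of -0.27, with -0.77 on the first Ifnar1-/- array and 0.12 on the second. The 18 tested enterocyte markers, which share Mep1a with the distal list, had a median of -0.75, with -1.28 and -0.36. The distal list's summed intensity was 23440 and 25130 in Ifnar1+/+ and 8595 and 14270 in Ifnar1-/-. Whether a difference in the stretch of gut sampled had a part in the values of Nts and Pyy was not tested.

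Gcg, the proglucagon gene whose product L cells cut into glucagon-like peptides, differed less than Pyy, a hormone that the same cells can make. Raw signals were 656.2 and 423.3 in Ifnar1+/+ and 694.5 and 433.9 in Ifnar1-/-. Normalized values were 9.04 and 8.54 in Ifnar1+/+ and 8.96 and 8.28 in Ifnar1-/-. In each group the arrays were further apart (0.49 and 0.68) than the group means, which differed by -0.17 ± 0.32 (SE; adjusted p = 0.87; interval -0.94 to 0.59). Leaving out Ifnar1+/+ array 1 or Ifnar1-/- array 2 turned the sign, to 0.08 and 0.17. The difference between the responses of Gcg and Pyy was not tested.

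Ghrelin and somatostatin were the hormones with higher means in Ifnar1-/- samples. Ghrl encodes the precursor of ghrelin, a hunger hormone made mainly in the stomach and also in the proximal intestine. Its brighter probe read 145.6 and 134.2 in Ifnar1+/+, not well above background on either array, and 164.7 and 210.9 in Ifnar1-/-, above background on both. It was therefore kept for testing only through the Ifnar1-/- arrays. Normalized values were 5.11 and 4.82 against 5.29 and 6.51, so the separation rested chiefly on Ifnar1-/- array 2. The lowest signals well above background on the control arrays were 5.27 and 5.37. Set against these, the Ifnar1-/- mean was at least 1.5-fold higher (limma, adjusted p = 0.53). That bound holds for the mean only and rested on Ifnar1-/- array 2, as array 1 at 5.29 was level with those lowest signals. Across all 4 arrays the fitted difference was 0.94 ± 0.41 (SE), and it was 0.33 once Ifnar1-/- array 2 was left out. The other Ghrl probe was not above background on any array. Of 9 gastric markers with a probe, 7 were detected on no array, among them Gast and Atp4b, and Pgc and Hdc were detected on every array. Pgc, which encodes a pepsinogen and was chosen after its values were seen, lay at 6.20 and 5.80 in Ifnar1+/+ and at 6.22 and 7.41 in Ifnar1-/-, highest on the array where Ghrl was highest. Hdc, the other of the 2 gastric markers tested, had a lower mean in Ifnar1-/- samples. It lay at 8.15 and 7.25 in Ifnar1+/+ and at 7.11 and 7.73 in Ifnar1-/-, highest on Ifnar1+/+ array 1. The gastric list's summed intensity was 325.2 and 176.1 in Ifnar1+/+ and 180.6 and 350.5 in Ifnar1-/-, and its part in the Ghrl values was not tested.

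Somatostatin RNA (Sst), the product of D cells, which restrain other endocrine cells, was detected on all arrays at raw signals of 195.1 and 156.6 in Ifnar1+/+ and 236.6 and 176.4 in Ifnar1-/-. It lay at 6.29 and 5.62 in Ifnar1+/+ and at 6.61 and 5.82 in Ifnar1-/-, and the groups overlapped. The difference was 0.26 ± 0.36 (SE; adjusted p = 0.83), and its sign turned to -0.08 without Ifnar1+/+ array 2 and to -0.14 without Ifnar1-/- array 1. For Gcg, Sst and Cck alike, array 1 was brighter than array 2 in both groups. Pancreatic islets and neurons also make somatostatin. Of 10 pancreas markers with a probe 7 were detected on no array, the islet hormones Ins2 and Ppy among them, while the digestive enzyme genes Cela1 and Pnliprp1 were detected on every array. Of 15 enteric neuron and glia markers 10 were detected on no array, Elavl4 and Uchl1 among them, and Ret, which was detected on every array, differed by 0.25 ± 0.34 (SE). The summed intensity was 482.9 and 556.7 in Ifnar1+/+ and 531.9 and 714.4 in Ifnar1-/- for the 3 tested pancreas markers, and 58.71 and 30.61 against 40.05 and 72.01 for Ret, the only neuronal marker tested; their part in the Sst values was not tested.

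The granins are shared by most enteroendocrine cells, and their probes gave a lower mean for Chga and a near-equal one for Chgb. Chga was read by 3 probes, of which 1 was detected on every array, with raw signals of 233.9 and 226.6 in Ifnar1+/+ and 225.9 and 223.2 in Ifnar1-/-. That probe lay at 6.86 and 7.11 in Ifnar1+/+ and at 6.48 and 6.69 in Ifnar1-/-, so both Ifnar1-/- values were lower. The difference of -0.40 ± 0.24 (SE), a 1.32-fold lower mean, had an adjusted p = 0.60 and an interval from -0.96 to 0.16. The other Chga probes were above background on 1 array and on none. Chgb, read by 1 probe with raw signals of 392.1 to 504.1, lay at 8.13 and 8.40 in Ifnar1+/+ and at 8.38 and 8.26 in Ifnar1-/-. Both Ifnar1-/- values were between those of the controls, and the difference was 0.06 ± 0.23 (SE; adjusted p = 0.94; interval -0.50 to 0.62). The genes whose promoters matched TGACGTNA thus differed by 0.26 (Sst), -0.40 (Chga) and 0.06 (Chgb), none past the threshold.

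**Figure D2:**
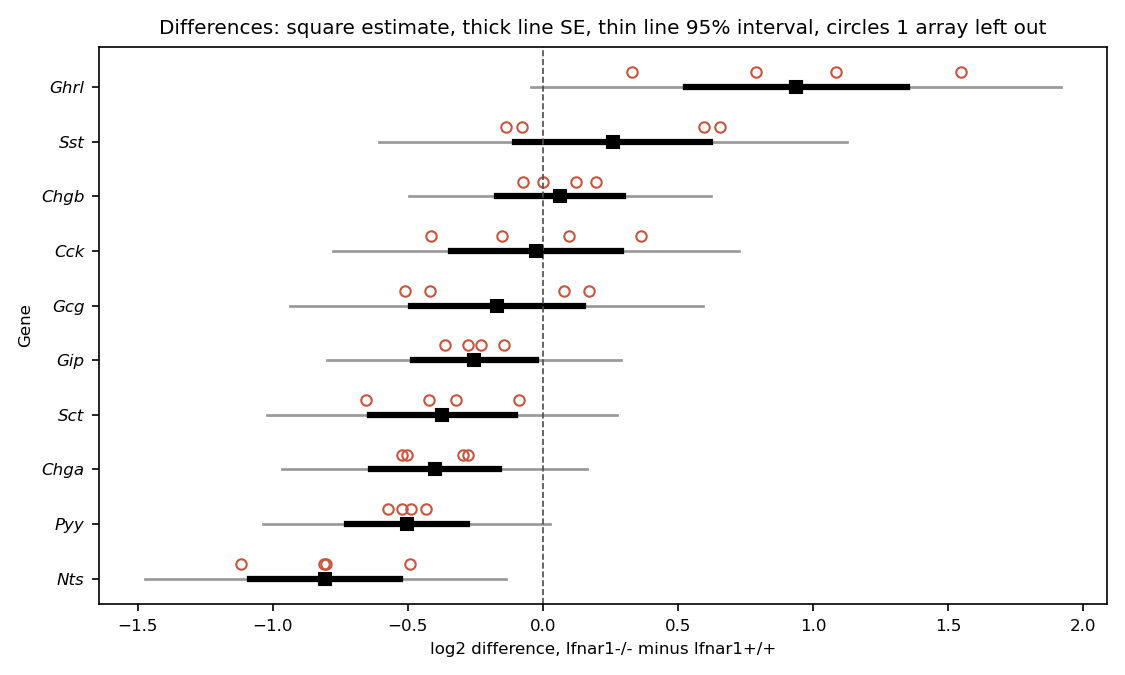
Log2 difference, Ifnar1-/- minus Ifnar1+/+ (horizontal axis), of each gene (vertical axis): the square is the estimate from 2 arrays per group, the thick line its SE, the thin line its 95% interval and the circles the estimates with 1 array left out. The interval of Nts, from -1.47 to -0.14, is the only one of the 10 that does not cross 0 before adjustment over all genes, and the circles of Cck, Gcg, Sst and Chgb fall on both sides of 0.

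The median size of the members' group difference was 0.32, beside a median SE of 0.27, and over all genes these were 0.25 and 0.26. The median gap between arrays of a group was 0.26 in Ifnar1+/+ and 0.41 in Ifnar1-/- over the members, beside 0.19 and 0.35 over all genes. A gap between 2 single arrays is another measure than a difference between 2 group means, so their sizes are not directly comparable. Without background correction the difference was 0.33 for Ghrl, -0.19 for Chga, -0.09 for Gip and 0.10 for Sst. On Ifnar1-/- array 1 the members' median shift from the control mean was -0.09, and on array 2 it was -0.19.

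Products of other enteroendocrine cells were seldom measurable, and none passed the test. Of 13 other peptides and amine genes, 11 had a probe, 5 of these were detected on no array (Slc18a1, Insl5, Iapp, Gast and Gal) and 4 were tested. Insl5, a hormone of colonic L cells, was among the undetected. The 2 with higher means were led by Nmb, which encodes neuromedin B, at 0.58 ± 0.25 (log2, SE; adjusted p = 0.53). The others were Ddc, the decarboxylase that makes serotonin and dopamine, at -0.72 ± 0.35 (adjusted p = 0.54), and Tac1, the substance P precursor of enterochromaffin cells, at -0.67 ± 0.53 (adjusted p = 0.68). Tac1 lay at 5.95 and 6.68 in Ifnar1+/+ and at 6.44 and 4.86 in Ifnar1-/-, the last not above background. Ddc is also expressed by enterocytes, whose marker sums are given above.

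Granule and processing genes were tested in 13 cases, none of which passed. Of 21 other granins and granule proteins with a probe, 11 were detected on no array, among them Scg3, Vgf and Pcsk1n, and 7 were tested. Their median difference was -0.04, with 2 higher and 5 lower means and 1 gene under an unadjusted p of 0.05. That gene was Rab3d, a GTPase of secretory vesicles, at 0.97 ± 0.35 (log2, SE; adjusted p = 0.51), which Paneth and other exocrine cells also use; it lay at 9.40 and 9.24 in Ifnar1+/+ and at 10.77 and 9.80 in Ifnar1-/-. Syp, a vesicle membrane protein, differed by 0.24 ± 0.24, and Scg5, a chaperone of a prohormone convertase, by -0.06 ± 0.25. Among 8 genes of prohormone processing and peptide inactivation with a probe, Pcsk1, which cuts prohormones, and Pam, which amidates them, were detected on no array. Dpp4, the brush-border peptidase that inactivates incretins, lay at 13.88 and 14.02 in Ifnar1+/+ and at 12.30 and 13.31 in Ifnar1-/-, a difference of -1.15 ± 0.36 (adjusted p = 0.50). Enterocytes carry Dpp4, and 17 of 18 tested enterocyte markers had a lower mean (47% of all genes). Among the 17, Ace was kept for testing only through the Ifnar1+/+ arrays, so the filter favoured its direction. Whether the lower enterocyte markers had a part in the Dpp4 value was not tested. Cpd, a carboxypeptidase of the secretory pathway, differed by 0.36 ± 0.22, and the neutral endopeptidase gene Mme by -0.80 ± 0.53.

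Of the transcription factors of the enteroendocrine lineage, none passed over all genes. Of 27 listed, 25 had a probe, 8 were detected on no array (Neurod1 and Pax6 among them) and 11 were tested. Of these 11, 9 had a higher mean (53% of all genes), with a median of 0.17 beside 0.03 over all genes, and 2 were higher at an unadjusted p under 0.05 (4.25% of all genes). Foxa1, which opens chromatin in endoderm, lay at 9.25 on both Ifnar1+/+ arrays and at 10.26 and 9.64 in Ifnar1-/-, a difference of 0.70 ± 0.28 (SE; adjusted p = 0.52). Rfx6, needed for hormone-producing cells in gut and pancreas, lay at 6.35 and 5.86 against 6.69 and 6.76, a difference of 0.62 ± 0.26 (adjusted p = 0.52). Prox1, also a regulator of this lineage, was below detection on both Ifnar1+/+ arrays. It lay at 4.98 and 5.08 in Ifnar1+/+ and at 5.35 and 6.19 in Ifnar1-/-. Its Ifnar1-/- mean was at least 1.36-fold higher, chiefly through array 2 (limma, adjusted p = 0.52). It was kept for testing only through the Ifnar1-/- arrays, so the filter fixed its direction, and it is 1 of the 9 with a higher mean. Neurog3, the factor that commits progenitors to the lineage, was added after its value was seen: it lay at 7.05 and 6.62 against 7.56 and 7.17, a difference of 0.53 ± 0.27 (adjusted p = 0.56). Foxa1 is expressed across the gut epithelium, so it does not mark endocrine cells alone. Among 8 tested genes that steer secretory fate, 4 means were higher and 4 lower, with a median of 0.10. The Notch ligand gene Dll1 differed by -0.82 ± 0.35 (adjusted p = 0.52), Notch1 by 0.37 ± 0.29 and Sox9 by 0.28 ± 0.26, and Atoh1 was detected on no array.

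**Figure D3:**
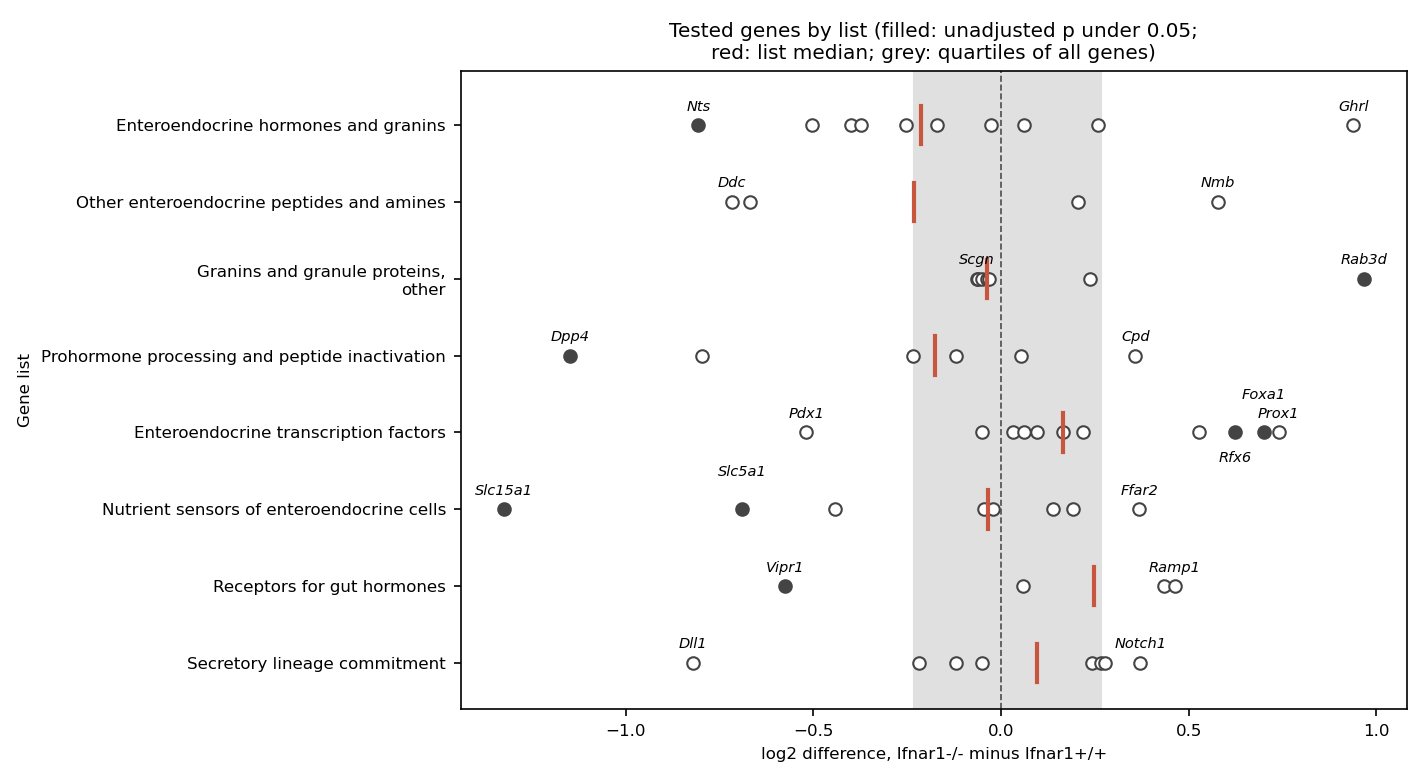
Log2 difference, Ifnar1-/- minus Ifnar1+/+ (horizontal axis), of every tested gene of 8 enteroendocrine lists (vertical axis), with filled points at an unadjusted p under 0.05, red bars at list medians and the grey band spanning the quartiles of all 8442 genes (-0.23 to 0.27). List medians run from -0.23 for other peptides and amines to 0.25 for gut hormone receptors; the band describes single genes and is no range for a median.

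No sensor or receptor gene passed the test over all genes. Of 20 nutrient sensor genes with a probe, 10 were detected on no array and 8 were tested, with 3 higher and 5 lower means and a median of -0.03. The peptide transporter Slc15a1 (-1.33 ± 0.37, log2, SE; adjusted p = 0.49) and the glucose transporter Slc5a1 (-0.69 ± 0.27; adjusted p = 0.51) are also on the enterocyte list. Tas1r3, a sweet and umami taste receptor chain, differed by -0.44 ± 0.34. Receptors for gut hormones were largely undetected: 17 of 21 with a probe were above background on no array, including those for secretin (Sctr), cholecystokinin (Cckar and Cckbr), neurotensin (Ntsr1 and Ntsr2), ghrelin (Ghsr) and somatostatin (Sstr1 to Sstr5). Of the 4 tested, Vipr1, the receptor for vasoactive intestinal peptide, differed by -0.57 ± 0.23 (adjusted p = 0.52) and Ramp1, a receptor-modifying protein, by 0.46 ± 0.32. Glp2r, the receptor for a proglucagon product, was below detection on both Ifnar1+/+ arrays, and its mean was at least 1.15-fold higher in Ifnar1-/- (adjusted p = 0.58); like Prox1, it was kept only through the Ifnar1-/- arrays.

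**Figure D4:**
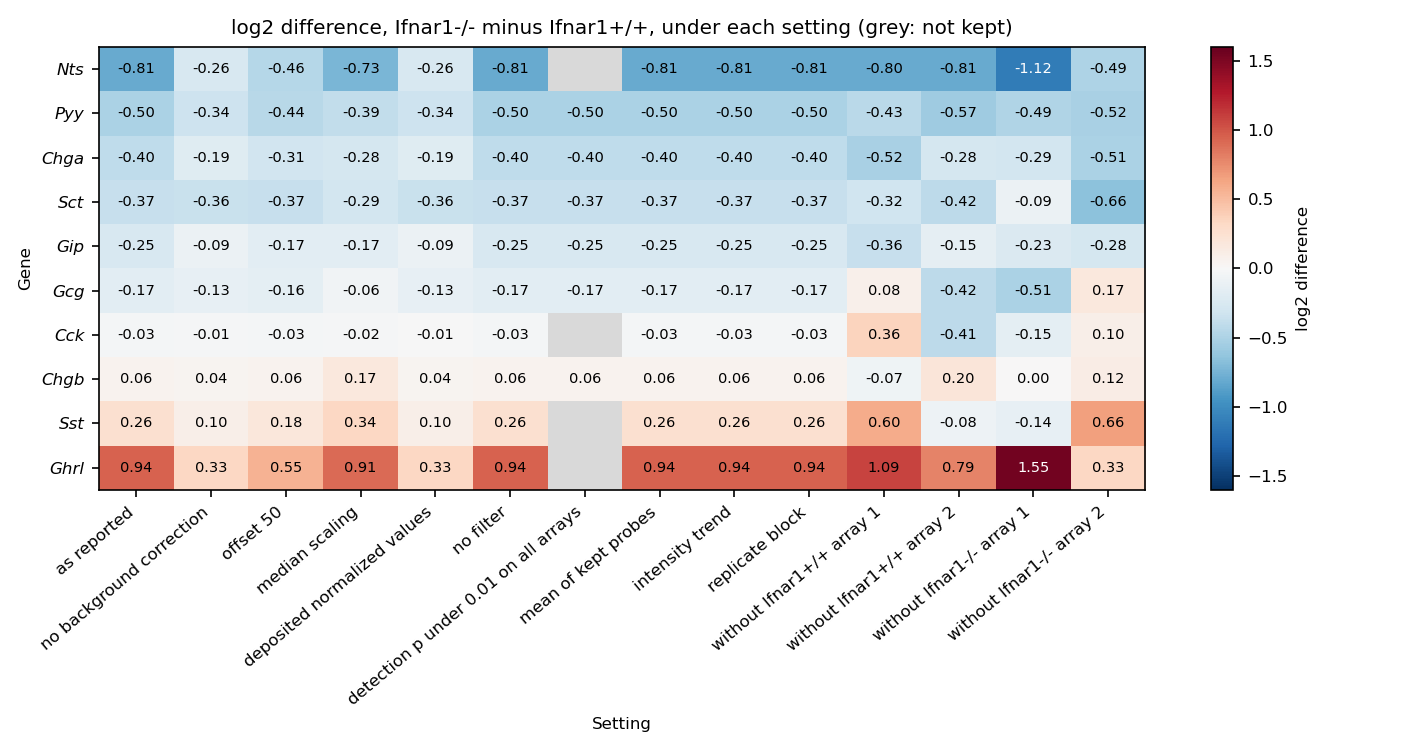
Log2 difference, Ifnar1-/- minus Ifnar1+/+ (colour and printed value), of each gene (rows) under each processing setting (columns), grey where the gene was not kept. Nts, Pyy, Chga, Sct and Gip are below 0 and Ghrl above 0 in every column that holds them, while their sizes change, as for the fitted difference of Ghrl from 0.33 to 1.55.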

How the data were processed

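RNA of 4 samples was labelled with biotin and read on single-colour Illumina arrays. Per the submitters' processing notes, GenomeStudio 1.8 exported the deposited raw intensity values. They are linear and, from the values, neither background subtracted nor scaled between arrays. Each deposited signal comes with a detection p-value, per the file headers; such values set a signal against negative control beads. The authors' normalized intensity values share a lowest value of 93.1 and a highest of 57820.3 on every array, with medians of 149.4 to 149.6; their scaling method is not given here, and they served as an alternative.

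Raw signals were background corrected from the detection p-values, quantile normalized and log2 transformed by neqc (limma 3.58.1, R 4.3.3, offset 16). The offset shrinks differences of dim genes. A filter kept 11884 probes detected (p under 0.05) on 2 or more arrays, and each gene was represented by its brightest kept probe (8442 genes; all 10 members passed). Platform annotation named 23978 probes with 1 gene and 1719 with none. Groups, taken from the sample titles (the genotype labels match them, the growth protocol's text does not), were compared with lmFit and eBayes, two-sided. The p-values were Benjamini-Hochberg adjusted over all genes. The model had no covariate and 2 residual and 4.54 prior degrees of freedom. The fit was also run on simulated data with equal spread in both groups, which does not cover the unequal spread of these arrays. "At least" folds set the brighter mean against the lowest detected signal of each dimmer array, or the probe's own if higher. They take no account of the spread between arrays. Summed intensities add the tested genes' normalized values after taking off the offset. Named genes are the members, the altered genes and the 3 genes with the smallest p of each enteroendocrine list. Further genes were named to describe a list, and Neurog3 and Pgc were added after their values were seen. The members and lists were chosen with earlier results of these data known. The number of arrays limits the precision. Figures used matplotlib 3.10.9 (Python 3.11.15).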

Additional observations from a re-analysis of the deposited data

How the results depend on the processing

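Settings changed one at a time were the background step (none), the offset (50), the scaling (median), the values (deposited normalized), the filter (none, or all arrays with a detection p under 0.01), the probe rule (mean), an intensity trend, the threshold (0.1), a replicate block, and the omission of each array, the lone array then being assumed to vary like the other group. No member passed the adjusted threshold under any of them. Over all genes 0 passed with all arrays, against 359 higher and 445 lower at an unadjusted p under 0.05; leaving out 1 array gave 0 to 3 higher and 0 to 11 lower genes, none of them a member, the most (3 and 11) without Ifnar1+/+ array 2 and 5 lower without Ifnar1+/+ array 1. The members' median of -0.21 was -0.11 without background correction, -0.12 with median scaling (where all genes had a median of 0.11), -0.11 with the deposited values and -0.31 with the strict filter, which kept 6 members. It ranged from -0.35 to -0.091 with 1 array left out, the extremes without Ifnar1+/+ array 2 and Ifnar1-/- array 2. Signs turned only when an array was left out: Cck turned to 0.36 without Ifnar1+/+ array 1 and to 0.10 with Ifnar1-/- array 2 omitted, Gcg to 0.08 and 0.17 without the same arrays, Chgb to -0.073 without Ifnar1+/+ array 1, and Sst to -0.08 without Ifnar1+/+ array 2 and -0.14 without Ifnar1-/- array 1. With 1 array left out, the ranges were -0.41 to 0.36 for Cck, -0.51 to 0.17 for Gcg, -0.14 to 0.66 for Sst and -0.073 to 0.20 for Chgb. Over the alternatives with all arrays Nts ranged from -0.81 to -0.26, Ghrl from 0.33 to 0.94 and Chga from -0.40 to -0.19. Samples sharing a replicate number did not deviate together (r = -0.05 across 8442 genes, which are not independent replicates), and with the replicate block the counts were again 0 higher and 0 lower, with 0 members called and a members' median of -0.21. Dim signals limit Cck, Gip, Nts, Ghrl, Sst and Chga, whose raw values were at most 236.6.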
